A study of Mus musculus with 45 samples.

Results

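Collagens and laminins, the structural proteins of the extracellular matrix, were described through 53 of 18135 measured genes that encode their chains. The genes were chosen by name alone, as collagen alpha chains (43 genes) and laminin alpha, beta or gamma chains (10 genes) with a mean normalized count of at least 10 in 1 of the 3 brain regions or more, and the rule uses no difference between groups. Col10a1 was not analysed here. Each of the 53 genes reached the minimum in at least 1 region. The member just inside it was Col6a6, whose highest regional mean was 17.0, and no collagen or laminin gene of the table lay outside it. Col9a1 had a mean of 7.95 in the striatum, which left 52 genes to test there.

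The mRNA came from the prefrontal cortex (called cortex below), hippocampus and striatum of adult male C57BL/6J mice aged 13 weeks. The mice were wild-type (WT), heterozygous (Shank3-HT) or homozygous (Shank3-HM) for a deletion of exons 14 to 16 of Shank3, a scaffold protein of excitatory synapses. The labels name the last group as knock-out and the headers of the deposited values name it KI, and both were taken as Shank3-HM. There were 5 samples per genotype and region, which the study counts as 5 mice, and 45 samples in all. The values are normalized counts that the authors scaled between libraries (totals 26118607 to 29568983), so sequencing depth is unknown, and all tests and log2 differences were computed on log2(value + 1), a scale that understates changes of low genes. Ratios of means are ratios of normalized counts.

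Collagens are trimers of alpha chains. Fibrillar collagens form the fibrils of connective tissue, collagen IV forms the network of every basement membrane, the sheet that underlies epithelia and encloses blood vessels, collagen VI forms beaded filaments, and the FACIT collagens sit on the surface of other fibrils. Laminins are cross-shaped trimers of an alpha, a beta and a gamma chain that lie beside collagen IV in basement membranes. In the adult brain most such matrix belongs to blood vessels, meninges and choroid plexus, the fringed epithelium that makes cerebrospinal fluid, while some chains are made by neurons.

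Shank3 checked the labels: its mean normalized count in the cortex was 8005 ± 725 (SD, n = 5) for WT, 6138 ± 373 for Shank3-HT and 4054 ± 285 for Shank3-HM mice, and in each region every Shank3-HM sample lay below every WT sample. Markers of choroid plexus and meninges were measured beside the matrix genes because tissue of the brain surface and ventricles can be taken along in dissection. Ttr, the transport protein made by choroid plexus epithelium, ranged from 591 to 113040 in the 15 hippocampal samples, from 1.004 to 932 in the cortex and from 1.93 to 62259 in the striatum, where 14 samples lay at or below 840 and Shank3-HT replicate 5 held the highest value. A sum over 10 genes of striatal spiny projection neurons lay between 206107 and 280005 in the striatum and between 5672 and 6705 in the hippocampus. In the cortex it was 55623 in Shank3-HM replicate 2 and 7610 to 9919 in the other samples. The median and the members of smallest p for Shank3-HM against WT cortex are therefore given with and without that library. Most other cortical results for Shank3-HM mice include it.

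In WT mice Col6a1, Col25a1 and Col4a2 were among the 5 members of highest mean normalized count in every region, in an order that differed between regions. Per kilobase of transcript, which is the scale on which levels of different genes can be set side by side, Col6a1 (an obligatory chain of collagen VI) led in the striatum with 1133 normalized counts per kb and in the cortex with 497. Col25a1, a transmembrane collagen of neurons, led in the hippocampus with 754. In the cortex Col4a2 (428), Col25a1 (426) and Col4a1 (273) followed, of which Col4a1 and Col4a2 are the collagen IV chains of all basement membranes. In the striatum Col25a1 (469) and Col11a2 (269), a chain of collagen XI, followed. Col6a6 was lowest in all 3 regions, with 1.59 in the cortex and 1.29 in the striatum.

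**Figure D1:**
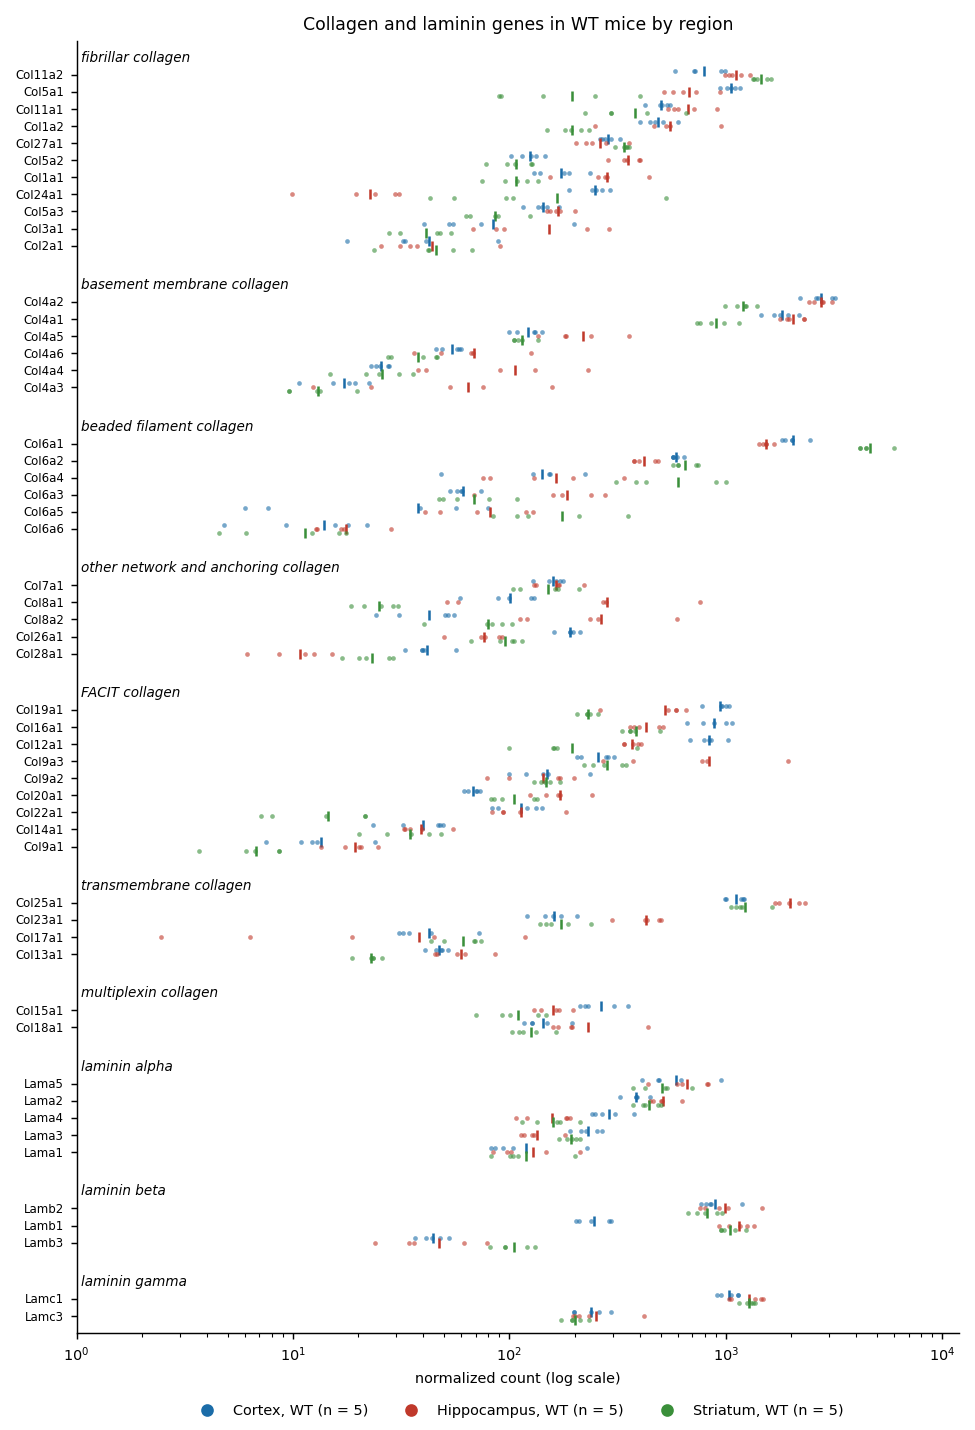
Normalized counts (log scale, x axis) of the 53 collagen and laminin genes (rows, by family) in the 15 WT samples, with points for samples, ticks for means and colours for regions. Col24a1 lies lowest in the hippocampus, Lamb1 lies lowest in the cortex, and Col22a1, Col5a1 and Col8a1 lie lowest in the striatum.

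The comparison of regions in WT mice asked where each chain was expressed. The hippocampus had the highest WT mean for 29 of the 53 genes, the cortex for 14 and the striatum for 10, and the striatum had the lowest for 27. Between hippocampus and striatum 36 members differed (limma, Benjamini-Hochberg adjusted p under 0.05), 27 of them higher in the hippocampus and 9 lower, where 55.7% of the 17401 genes tested differed, 28.2% of them upwards and 27.5% downwards. Between cortex and striatum 26 differed, 18 higher and 8 lower in the cortex, beside 59.0% of all genes (29.2% and 29.8%). Between cortex and hippocampus 26 differed, 10 higher and 16 lower in the cortex, beside 46.4% of all genes (23.1% and 23.3%). The median log2 difference of the members was 0.69 for hippocampus against striatum, 0.20 for cortex against striatum and -0.19 for cortex against hippocampus, where the median of all genes was 0.00, -0.01 and -0.01.

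The basement membrane collagens were lowest in the striatum for Col4a1 and Col4a2, the chains found in every basement membrane. Col4a1 normalized counts in WT mice were 739, 858, 761, 1151 and 978 in the striatum, 1461, 1676, 1773, 2189 and 1945 in the cortex and 1783, 1909.8, 2301, 2301 and 1966 in the hippocampus. No striatal sample reached the lowest sample of the other regions. Its partner Col4a2, with which it shares a promoter region, had means of 1195 ± 150 (SD, n = 5) in the striatum, 2760 ± 401 in the cortex and 2738 ± 261 in the hippocampus, and the log2 difference between cortex and striatum was 1.20 ± 0.09 (SE, limma adjusted p = 3.59e-15). All 6 collagen IV chains were higher in the hippocampus than in the striatum. With log2 Ttr, a choroid plexus marker, as a covariate 4 of them lost the call. There Col4a3 went from 1.77 to 0.17 (log2; adjusted p = 0.855) and Col4a4 from 1.74 to 0.45 (adjusted p = 0.437). Col4a5 went from 0.86 to 0.45 (adjusted p = 0.0946) and Col4a6 from 0.76 to 0.58 (adjusted p = 0.128). In the cortex 2 of 6 were called higher than in the striatum, beside 29.2% of all genes. Of 10 laminin chains 0 were called higher in the hippocampus than in the striatum and 2 lower (Lama3 and Lamb3), beside 28.2% and 27.5% of all genes.

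The fibrillar collagens were mixed, with 7 of 11 higher and Col24a1 and Col27a1 lower in the hippocampus than in the striatum. Of all genes 28.2% were higher and 27.5% lower there. With log2 Ttr as a covariate Col3a1 went from 1.67 to 1.18 (adjusted p = 0.0956) and Col11a1 from 0.89 to 0.71 (adjusted p = 0.0617), which ended their calls among the 7. The call of Col27a1 ended without WT replicate 1 of the hippocampus (adjusted p = 0.0525), while with the covariate Col27a1 went from -0.41 to -0.78 (adjusted p = 8.27e-05). Col11a2 had the highest level of the family in the striatum, with 1335, 1399, 1545, 1619 and 1356, where the cortex had 722, 582, 994, 711 and 946. These did not overlap, and Col11a2 was lower in the cortex by -0.90 ± 0.20 (log2, SE, limma adjusted p = 0.000184). Col5a1, which helps to start the assembly of fibrils, had normalized counts of 1107, 1163, 1059, 939.7 and 1014 in the WT cortex and 89.5, 91.6, 248, 143 and 401 in the WT striatum, a ratio of means of 5.43. Col24a1, a fibrillar collagen known from cortical neurons, had 188, 293, 251.9, 268 and 241 in the cortex and 9.91, 19.5, 30.8, 24.05 and 29.7 in the hippocampus, which did not overlap. The log2 difference was 3.47 ± 0.46 (SE, limma adjusted p = 2.59e-08). In the striatum Col24a1 was 43.0, 55.4, 104, 96.3 and 531, with replicate 5 apart from the others. Col1a2, a chain of the collagen I made by fibroblasts, averaged 486 ± 75.5 in the cortex, 551 ± 255 in the hippocampus, against 194 ± 32.5 in the striatum. The summed level of 20 meninges and fibroblast genes moved the same way, from 5236 to 7314 in WT cortex, 7149 to 19058 in WT hippocampus and 2767 to 3546 in WT striatum, with none of them at 0 in any WT sample, and its part in the differences between regions was not tested.

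Among the FACIT collagens Col22a1 had the largest fall towards the striatum, from 88.8, 121, 83.4, 142 and 133 in the cortex to 21.4, 14.2, 7.16, 7.98 and 21.5. The log2 difference was 2.99 ± 0.36 (SE, limma adjusted p = 1.97e-09). Cortex and hippocampus overlapped for this gene, with means of 114 and 113. Col12a1, Col16a1 and Col19a1 of the same family were higher in the cortex than in both other regions, and each had a cortical mean of at least 2.28 times the striatal one. The difference of Col12a1 from the striatum was 2.23 ± 0.28 (log2, SE, limma adjusted p = 4.14e-09).

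Of the 6 collagen VI chains 3 (Col6a1, Col6a4 and Col6a5) were called higher in the striatum than in the cortex, beside 29.8% of all genes. Col6a1 normalized counts were 4159, 4458, 4167, 4447 and 6003 in the WT striatum and 1538, 1424, 1490.1, 1526 and 1672 in the WT hippocampus, 3.04 times apart in the mean. Col6a5 and Col6a4, alternative chains of collagen VI filaments, were 4.64 and 4.27 times higher in the mean in striatum than in cortex. Col6a3 was the 1 chain of this family called higher in the hippocampus than in the striatum (means of 184 and 68.6), and Col6a6, with means of 17.6 and 11.4, missed the threshold (adjusted p = 0.087). For Col6a5 the difference was -2.58 ± 0.53 (cortex minus striatum, log2, SE; limma adjusted p = 5.51e-05). The call for Col6a4 against the cortex ended without WT replicate 3 of the cortex (adjusted p = 0.0607).

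Of the 4 transmembrane collagens, which neurons among other cells make, 3 were higher and 1, Col17a1, lower in the hippocampus than in the striatum. The shares over all genes were 28.2% higher and 27.5% lower. Col25a1 was 1680.4, 2313, 2170.1, 1768 and 1959 in the WT hippocampus, 999, 1215, 1203, 989 and 1181 in the cortex and 1186, 1120.1, 1157, 1057 and 1633 in the striatum. No sample of the other regions reached the lowest hippocampal one. Col23a1 had the same order, with means of 429 ± 80.6, 161 ± 31.7 and 173 ± 40.3, and passed against both other regions. Col17a1 had WT means of 38.2 ± 47.9 in the hippocampus, 61.1 ± 13.5 in the striatum and 42.7 ± 17.3 in the cortex, and its call between hippocampus and striatum (-1.65 ± 0.66, limma adjusted p = 0.0309) ended without WT replicates 1 or 2 of the hippocampus or 1, 2 or 4 of the striatum (adjusted p from 0.0533 to 0.181). With log2 Ttr as a covariate that difference was -3.00 (adjusted p = 0.00234). Of the network collagens Col26a1 was highest in the cortex (190 ± 19.0, against 76.6 ± 16.9 in the hippocampus and 95.7 ± 18.3 in the striatum), as was Col28a1 (41.8 ± 8.93, against 10.8 ± 3.47 and 23.2 ± 5.16).

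The laminin chains differed by region 1 by 1. Lamb1, the beta chain of the most widespread laminins, was 209, 239, 293, 204 and 288 in the cortex but 1253, 930.5, 1353, 1160.5 and 1033 in the hippocampus and 955, 1245, 983, 1108 and 947 in the striatum. Cortical samples did not overlap with either region, and hippocampus and striatum overlapped with each other. Lamc1, the gamma chain with which it usually assembles, had means of 1037 ± 105, 1278 ± 221 and 1282 ± 83.4 in cortex, hippocampus and striatum. Lamc1 was lower in the cortex than in the hippocampus by -0.29 ± 0.10 and than in the striatum by -0.31 ± 0.10 (log2, SE, limma adjusted p = 0.0151 and 0.00723). The call against the hippocampus ended without cortical WT replicate 4 or hippocampal WT replicates 1 or 4 (adjusted p from 0.0563 to 0.0668). Lama1 had means of 119, 129 and 120 and passed in no comparison, and Lama2 had 385, 510 and 439 and passed between cortex and hippocampus, though not with log2 Ttr as a covariate (adjusted p = 0.239). Lamb2, Lama5 and Lamc3 passed in no comparison of regions.

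Lama3 and Lamb3, chains of laminins that anchor epithelia, differed from the common chains and from each other. Lama3 was lowest in the hippocampus (133 ± 27.2, against 231 ± 31.5 in the cortex and 193 ± 16.8 in the striatum), and its difference from the cortex was 0.80 ± 0.13 (log2, SE, limma adjusted p = 2.3e-06). Lamb3 was 120.4, 132, 95.4, 81.8 and 95.2 in the WT striatum, where the cortex had 47.9, 52.7, 41.4, 36.6 and 44.1 and the hippocampus a mean of 47.1 ± 22.7 (SD, n = 5). It was highest in the striatum, by 1.21 ± 0.25 over the cortex and 1.25 ± 0.25 over the hippocampus (adjusted p = 5.03e-05 and 3.63e-05).

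Ttr differed widely among the hippocampal samples of every genotype, and a group of collagens varied with it. Across the 15 hippocampal samples, with genotype means removed, 7 of the 53 members were related to log2 Ttr past the threshold, all of them positively (13.2% of members; 0.845% of 16571 genes passed, adjusted over all of them). They were Col8a1 (Pearson's r = 0.96), Col9a3 (0.94), Col8a2 (0.92), Col17a1 (0.86), Col4a3 (0.84), Col4a4 (0.84) and Lama5 (0.80). These genes were singled out after their values were seen. Col8a1 and Col8a2 form the network of collagen VIII, Col9a3 is a chain of the cartilage FACIT collagen IX, Col4a3 and Col4a4 belong to the collagen IV of kidney and lung epithelia, Col17a1 anchors epithelial cells, and Lama5 is the alpha chain of most adult epithelial and vascular basement membranes.

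Col8a1 had the largest r. Hippocampal Col8a1 was 57.9, 51.3, 279.8, 758 and 272 in WT replicates 1 to 5, where Ttr was 5719, 2097, 31385, 113040 and 32301. In Shank3-HT mice Col8a1 was 57.3, 255, 42.7, 57.1 and 239 beside Ttr of 987, 30349, 591, 1181 and 28261, and in Shank3-HM mice it was 277, 301, 449, 147 and 65.7 beside Ttr of 39190.4, 39200.4, 55089, 16338 and 5006. Samples low in one gene were low in the other, and low and high samples occurred in every genotype. Spearman's rho was 0.95, and the permutation p of 1e-05 was the smallest that 100000 permutations can give (adjusted p = 0.00345 for r and 0.0069 for rho). Without Shank3-HT replicates 1 and 3, the samples farthest from the median Ttr, r was 0.96.

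For the other related genes the adjusted permutation p of r lay between 0.00345 and 0.0475, and r without the same samples lay between 0.83 and 0.95. Lama5 was the weakest, and its rank correlation (rho = 0.79) missed the threshold (adjusted p = 0.0945). Col9a3 ranged from 271 to 1933 and Col4a4 from 29.3 to 231 over the 15 samples. In the cortex no member passed (0.0% of 16507 genes did) and in the striatum none of 52 did (0.291% of 16482 genes), where 14 of the 15 samples had low Ttr.

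Promoter sequence is shown for genes related to Ttr whose window overlaps no annotated exon, so that their start regions can be read side by side. RefSeq promoter windows (GRCm38.p6) were found for 39 of the 53 members. The 250 bases before the start of Col8a1 (chr16:57754738-57754987, minus strand) and of Lama5 (chr2:180225860-180226109, minus strand) each hold 4 GC boxes, the motif GGGCGG that Sp-family factors are known to bind, searched on both strands, where the other strand reads as its complement, and set in capitals. Of the other genes of the 7 with a window, Col8a2 holds 4 GC boxes and Col17a1 and Col4a4 hold none. The GC box occurs in 24 of 43 member windows (55.8%) and in 32.7% of 32851 windows of this length in the genome. Col4a3 and Col4a4 lie head to head on chromosome 1 with 71 bases between their starts (chr1:82586850-82586920, minus strand, GRCm38), and this stretch holds none of the 4 motifs searched. Their correlation with Ttr was equal to 2 decimals. Sequences run 5′ to 3′.
Col8a1: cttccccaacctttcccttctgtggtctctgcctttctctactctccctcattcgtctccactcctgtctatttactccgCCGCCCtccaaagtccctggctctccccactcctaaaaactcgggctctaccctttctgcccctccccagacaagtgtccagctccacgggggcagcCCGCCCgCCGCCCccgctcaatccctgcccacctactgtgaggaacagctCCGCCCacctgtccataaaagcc
Lama5: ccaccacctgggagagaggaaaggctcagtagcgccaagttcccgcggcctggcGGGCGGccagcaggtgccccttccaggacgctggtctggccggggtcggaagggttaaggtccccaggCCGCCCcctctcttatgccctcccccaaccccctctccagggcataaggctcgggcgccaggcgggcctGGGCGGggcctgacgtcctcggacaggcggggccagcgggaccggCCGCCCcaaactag
Between Col4a4 and Col4a3: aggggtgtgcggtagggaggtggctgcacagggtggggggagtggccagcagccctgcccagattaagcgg
The GC boxes of Col8a1 start 170, 73, 66 and 23 bases before the start of the gene and those of Lama5 196, 128, 59 and 14 bases before it. CCAAT occurs in 32.6% of member windows and 33.8% of all windows, and TATAAA in 9.30% and 12.4%. TGANTCA, the site of AP-1 factors, occurs in 2.33% and 6.75%.

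The sample that stood apart in the striatum was the highest there for 6 of these 7 genes. This was Shank3-HT replicate 5, with Ttr of 62259, and the share of all genes that were highest in it was not computed. Its Col8a1 was 452, where the other 14 striatal samples lay between 13.5 and 36.7. Its Col8a2 was 368 (others 38.5 to 120), its Col9a3 1097 (others 209 to 443), its Col4a3 184 (others 8.30 to 72.7), its Col4a4 130 (others 14.8 to 37.8) and its Lama5 959 (others 371 to 695). Col17a1, the seventh of the set, was 62.1 there, within the range of the other samples. Of 20 choroid plexus genes none was at 0 in any hippocampal sample, and their sum ranged from 3044 to 138969 there. In the striatum it was 77995 in Shank3-HT replicate 5, where that group had a lowest value of 1933 and a median of 2176. In the WT and Shank3-HM samples it lay between 1754 and 3122.

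A further set varied with markers of meninges and fibroblasts. Against the mean log2 level of 20 such genes, 9 of the 53 members passed in the hippocampus, all positively (17.0%, beside 2.07% of all genes). They were Col1a2 (r = 0.98), Col1a1 (0.97), Col13a1 (0.90), Lama4 (0.88), Col5a1 (0.82), Col6a2 (0.81), Col3a1 (0.78), Col4a6 (0.78) and Col18a1 (0.75), and none of them was among the 7 related to Ttr. In the cortex Col1a2 (r = 0.96) and Col13a1 (r = 0.94) passed (3.77% of members, 0.491% of genes; r = 0.90 and 0.72 without the pair of samples farthest from the median), and in the striatum none did (0.0%). The hippocampal adjusted permutation p lay between 0.00276 and 0.0421, r without Shank3-HT replicate 5 and WT replicate 3 between 0.72 and 0.97, and the rank correlation passed for all but Col6a2 (rho = 0.76, adjusted p = 0.0722). The list holds no collagen or laminin gene. Hippocampal Col1a2 was 468, 553, 249.8, 954 and 532 for WT, 558, 812, 667, 775 and 346 for Shank3-HT and 579, 747, 930.3, 456 and 306 for Shank3-HM mice, and the low samples again occurred in every genotype. In bulk tissue a smaller number of cells of a type and less RNA per cell cannot be told apart.

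**Figure D2:**
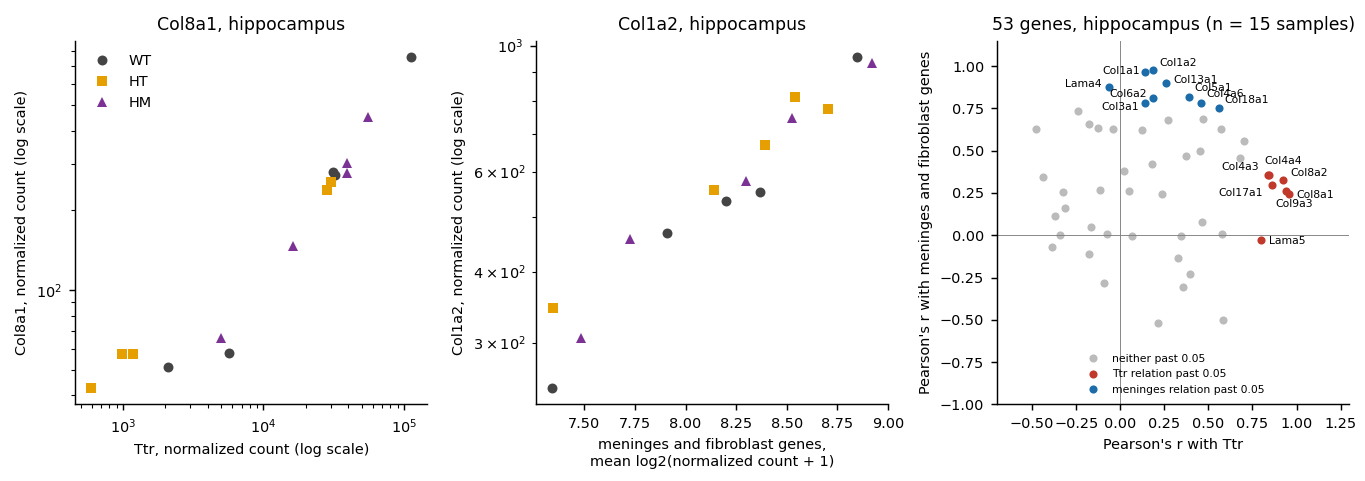
Left and middle, hippocampal normalized counts (log scale) of Col8a1 against Ttr (log scale) and of Col1a2 against the mean log2(normalized count + 1) of 20 meninges and fibroblast genes, 1 point per sample and genotype by symbol. Right, Pearson's r of each of the 53 genes with Ttr (x axis) and with the meninges and fibroblast genes (y axis). The 7 genes past the threshold for Ttr and the 9 past it for the other list share no gene, and no test compared the correlations.

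The Ttr level bears on the comparison of regions, since WT hippocampal samples had Ttr of 2097 or more and WT cortical samples of 92.4 or less. With log2 Ttr as a covariate, 6 members stayed lower in the cortex than in the hippocampus where 16 had been, beside 19.6% of all genes where 23.3% had been. In the hippocampus 17 were higher than in the striatum where 27 had been, 16 of them shared, beside 24.9% of all genes where 28.2% had been. Col4a3, Col4a4, Col4a5, Col8a2, Col9a3 and Col18a1 lost the call in both comparisons. Col6a5, Col11a2, Lama2 and Lamc1 lost it against the cortex alone, among them Col6a5 with a difference of -1.53 before and -1.69 with the covariate, and Col3a1, Col4a6, Col8a1, Col11a1 and Col15a1 lost it against the striatum alone. With the covariate Col4a3 and Col18a1 (cortex minus hippocampus) and Col9a3 (hippocampus minus striatum) also changed sign, to 0.23, 0.04 and -0.03. Calls were gained as well: Col17a1 (2.47, adjusted p = 0.0155) and Col27a1 (0.54, adjusted p = 0.00733) became higher in the cortex than in the hippocampus, which made 12 such members where 10 had been. Between hippocampus and striatum Col6a6 (1.155, adjusted p = 0.0299) and Col11a2 (-0.64, adjusted p = 0.0413) were gained, and Col6a4 (-0.58, adjusted p = 0.644) was lost. By contrast, Lamb1, Col5a2, Col6a3, Col20a1, Col23a1 and Col25a1 kept theirs against the cortex and Col4a1, Col4a2, Col5a1 and Col22a1 theirs against the striatum. For Col8a1, hippocampal WT samples spanned 51.3 to 758 and striatal ones 18.5 to 30.7, and the difference went from 2.80 to 0.46 (log2; adjusted p = 0.583 with the covariate). Region and Ttr level cannot be told apart for such genes. The 18 members higher and 8 lower in cortex than in striatum all kept their calls, and Col4a6 was gained as higher (0.54, limma adjusted p = 0.0494). In that fit 19 members were higher and 8 lower, beside 29.4% and 30.2% of all genes.

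The comparison of mutant with WT mice asked whether matrix genes changed with the deletion in 1 or both Shank3 copies in any region. None of the 53 genes passed the threshold (limma, adjusted p) in any of the 6 comparisons of Shank3-HT or Shank3-HM with WT mice. No member was called in the cortex of Shank3-HT (0.0% of 16507 genes) or Shank3-HM mice (0.0121%), in the hippocampus of either (0.00603% of 16571 genes in each) or in the striatum of Shank3-HT (0.00607% of 16482 genes) or Shank3-HM mice (0.182%). Shank3 itself missed the threshold in the cortex of Shank3-HT mice (-0.38 ± 0.07, log2, SE, limma adjusted p = 0.288). In the striatum of these mice it passed narrowly (-0.50 ± 0.07, limma adjusted p = 0.0494). The absence of a call therefore does not show the absence of a change. At an unadjusted limma p under 0.05 there were 2 members for Shank3-HT and 3 for Shank3-HM mice in the cortex, where 2.68% and 5.49% of all genes had such a p. There were 2 and 0 in the hippocampus (5.26% and 4.73%) and 7 and 2 in the striatum (7.43% in each). The comparisons of both mutants within a region share the WT samples.

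The medians of the 53 genes lay within 0.10 of 0 in every comparison of genotypes. Their median log2 difference from WT for cortex, hippocampus and striatum was 0.06, 0.05 and 0.04 in Shank3-HT mice and -0.05, 0.04 and -0.01 in Shank3-HM mice, where all genes had medians between -0.01 and 0.01. Members with a positive difference numbered 33 of 53, 31 of 53 and 33 of 52 in Shank3-HT mice (49.6%, 52.0% and 48.0% of all genes) and 21, 31 and 23 in Shank3-HM mice (49.1%, 51.5% and 50.3%). Without replicate 2 the median in the cortex of Shank3-HM mice was -0.10, with the spiny projection neuron level as a covariate -0.13 and with the excitatory neuron level -0.12. Shank3-HM against Shank3-HT mice, which share their samples with the comparisons above, gave no call (beside 0.00606%, 0.00603% and 0.14% of genes for cortex, hippocampus and striatum). There 5, 3 and 5 members had an unadjusted limma p under 0.05, beside 4.87%, 2.09% and 6.49% of genes. Medians were -0.09, 0.02 and -0.09, and 14 of 53, 28 of 53 and 18 of 52 members had a positive difference, beside 48.0%, 47.6% and 50.4% of genes. Under the alternatives run the cortical median lay between -0.15 and -0.08, the hippocampal one between -0.13 and 0.06 and the striatal one between -0.17 and -0.01.

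**Figure D3:**
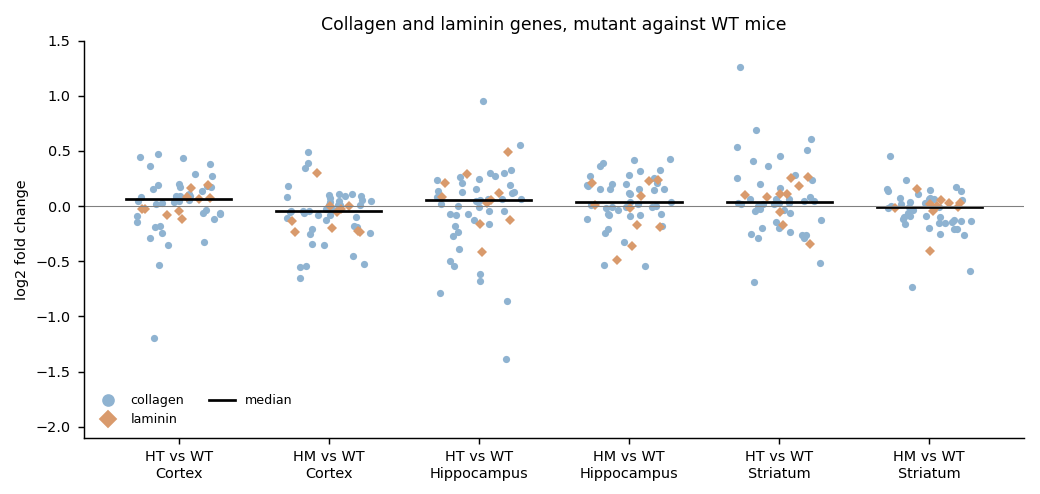
The log2 difference from WT (y axis) of each collagen (circles) and laminin (diamonds) gene in the 6 comparisons of mutant with WT mice, with bars at the median of the members. The medians lie between -0.05 and 0.06, and no gene shown has an adjusted p under 0.05.

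The members of smallest p show how the groups overlapped. In the striatum of Shank3-HT mice Col13a1, a transmembrane collagen of cell junctions, was 39.4, 36.9, 38.4, 31.4 and 41.4, and in WT it was 22.9, 25.8, 23.4, 23.5 and 18.7. The groups did not overlap, as for 0.971% of all genes, and the difference was 0.69 ± 0.26 (limma adjusted p = 0.634), while Shank3-HM samples spread from 13.6 to 53.3. Lama3 gave 0.26 ± 0.09 and Col6a1 -0.29 ± 0.11 in the same comparison (adjusted p = 0.632 for both). In the striatum of Shank3-HM mice Col14a1, a FACIT collagen, had means of 19.96 and 34.8 in Shank3-HM and WT mice (-0.74 ± 0.27, adjusted p = 0.51), and Lamc1 gave 0.16 ± 0.07 (adjusted p = 0.629). Lama1, the alpha chain of early basement membranes, was 71.5, 93.4, 106, 75.5 and 85.3 in Shank3-HM and 82.1, 104, 101, 109 and 202 in WT striatum, which overlapped (-0.41 ± 0.22, adjusted p = 0.738; -0.20 without WT replicate 5).

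Lama3 and Lamb3 overlapped between Shank3-HM and WT mice in the striatum. Lama3 was 187, 206, 222, 193 and 191, where WT had 185, 212, 203, 195 and 169, and the difference was 0.05 ± 0.09 (limma adjusted p = 0.950). Lamb3 was 107, 112, 88.1, 119 and 105 in these mice, a difference of 0.03 ± 0.15 (limma adjusted p = 0.985), and -0.35 ± 0.15 in Shank3-HT mice (adjusted p = 0.659).

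In the hippocampus Lama5 gave -0.42 ± 0.17 for Shank3-HT and -0.36 ± 0.17 for Shank3-HM mice (adjusted p = 0.926 and 0.920), and it was among the genes related to Ttr. Ttr itself gave -2.24 ± 1.18 in Shank3-HT mice (adjusted p = 0.926). With log2 Ttr as a covariate Lama5 gave -0.17 in Shank3-HT mice (adjusted p = 0.773) and -0.41 in Shank3-HM mice (adjusted p = 0.659). Col24a1 gave 0.96 ± 0.36 in Shank3-HT mice, where replicate 4 had 122 and the other samples 24.1 to 45.1, and 0.58 without it. Col6a5 gave -0.54 ± 0.29 in the same mice (adjusted p = 0.926), with WT samples from 40.6 to 128 and Shank3-HT samples from 39.4 to 80.5, and -0.34 without WT replicate 1. Col23a1, a transmembrane collagen, gave 0.28 ± 0.14 and Col5a1 0.32 ± 0.17 in Shank3-HM mice (adjusted p = 0.920 for both), which fell to 0.16 without WT replicate 1 and to 0.21 without Shank3-HM replicate 2.

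In the cortex of Shank3-HT mice Col20a1 gave 0.47 ± 0.19, Col24a1 0.44 ± 0.18 and Col15a1, a basement membrane collagen of vessels, 0.38 ± 0.19 (adjusted p = 0.9997 for each), and Col20a1 gave 0.30 without Shank3-HT replicate 2. Cortical Col24a1 was 386, 347, 382, 303 and 266 for Shank3-HT and 188, 293, 251.9, 268 and 241 in WT mice, which overlapped. In the cortex of Shank3-HM mice Col26a1 gave -0.45 ± 0.15, Col4a6 -0.53 ± 0.21 and Col6a1 0.49 ± 0.21 (adjusted p = 0.878 for each), and without replicate 2 these were -0.32, -0.59 and 0.25. In that library Col6a1 was 5526 (others 1778 to 3004), Lamb1 493 (others 182 to 329) and Col11a1 1152 (others 388 to 659). These were picked from the members highest there, and the share of all genes that were highest there was not computed. Col6a1 and Lamb1 were called higher in WT striatum than in WT cortex, while Col11a1 had means of 380 in WT striatum and 502 in WT cortex. With the spiny projection neuron level as a covariate Col6a1 gave 0.22 in Shank3-HM mice (adjusted p = 0.980), and with the excitatory neuron level 0.14 (adjusted p = 0.923).

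The chains of the main basement membrane and fibroblast collagens overlapped between genotypes in every region. Striatal Col4a2, for example, was 986, 1131, 1229, 1234 and 1395 for WT, 1055, 1176, 1279.9, 1191 and 1348 for Shank3-HT and 1175, 1256, 1199, 1350.4 and 1004 for Shank3-HM mice. Striatal Col1a1 averaged 107 ± 23.4, 108 ± 23.2 and 104 ± 19.3 in the same order. No test of the difference in genotype effect between 2 regions called a member: over 6 such comparisons the count was 0, beside 0.0% of 17401 genes in 4 of them, 0.0517% for cortex against striatum and 0.069% for hippocampus against striatum in Shank3-HM mice. At an unadjusted limma p under 0.05 there were 15 members over the 318 tests (4.72%), beside 4.61% over all genes in the same comparisons.

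Genes that act on collagens and laminins were set beside them from lists of known function. None of 10 basement membrane partners such as nidogen and perlecan, 29 collagen-processing genes, 13 receptors or 16 matrix proteases and inhibitors (14 of these tested in the striatum) passed in any comparison of mutant with WT mice. At most 3 genes of a list had an unadjusted limma p under 0.05, beside 2.68% to 7.43% of all genes across these comparisons. Between WT hippocampus and striatum, where 28.2% of all genes were higher and 27.5% lower, 7 of 10 basement membrane partners were higher and 0 lower in the hippocampus, with Npnt at 2.46 ± 0.13 (nephronectin, an integrin ligand) and Fbln1 at 1.23 ± 0.20 (fibulin). Of 29 collagen-processing genes 15 were higher and 3 lower, among them the prolyl hydroxylase P3h2 (0.82 ± 0.14), the lysyl hydroxylase Plod2 (1.27 ± 0.12) and the procollagen peptidases Adamts14 (3.34 ± 0.27) and Adamts3 (-2.23 ± 0.18). Of 13 receptors 4 were higher and 4 lower, close to the shares of all genes, and of 16 matrix proteases and inhibitors 9 were higher and 2 lower. The medians of these lists were 0.67, 0.34, 0.06 and 0.33, where that of all genes was 0.00. These counts and medians are without log2 Ttr as a covariate.

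Col6a4 (ENSMUSG00000032572; chr9:105989454-106096783, minus strand, GRCm38) varied strongly between samples of a genotype. Its normalized counts followed the replicate number in the labels in all 3 regions, a pattern noticed after the values were seen. In Shank3-HM mice replicates 1 to 5 had 223, 374, 28.6, 94.7 and 193 in the cortex, 246, 172, 6.93, 96.9 and 246 in the hippocampus, and their striatal values were 847, 689.6, 149, 399 and 768, so replicate 3 was lowest in each. In Shank3-HT mice cortical values were 345, 266, 174, 201 and 27.9, hippocampal values 326, 286, 303, 187 and 25.3 and striatal values 1022, 1064, 629, 855 and 208, with replicate 5 lowest in each. In each region the range within each genotype exceeded the differences between genotype means, and no comparison of genotypes called it.

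Over the 15 numbered samples, with genotype means removed, Pearson's r of Col6a4 was 0.87 between cortex and hippocampus (permutation adjusted p = 0.041 over 15649 genes), 0.88 between cortex and striatum (adjusted p = 0.02) and 0.94 between hippocampus and striatum (adjusted p = 0.0104), where 0.665%, 1.49% and 0.716% of genes passed. Spearman's rho was 0.68, 0.60 and 0.84 (adjusted p = 0.235, 0.277 and 0.0452), and r without the pair of samples farthest from the median was 0.61, 0.66 and 0.85, so the relation with the cortex rested in part on those samples. It was the only 1 of 52 members past the threshold of r in all 3 pairs of regions, as 0.211% of all genes were, and was number 18 of 15649 genes by its lowest r. Col6a5, its nearest member on chromosome 9, passed in no pair of regions (r = -0.48 between cortex and hippocampus, 0.19 between cortex and striatum, 0.02 between hippocampus and striatum). Col6a6, which lies beyond Col6a5, passed between cortex and striatum (r = 0.78, adjusted p = 0.0413) and had r of 0.19 and 0.14 between the other pairs. The labels do not state that a number marks the same mouse in all regions.

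**Figure D4:**
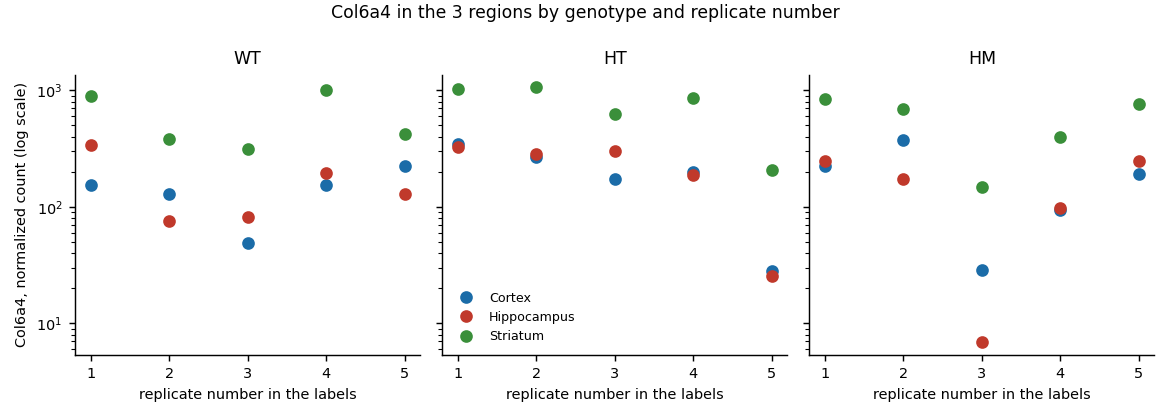
Normalized counts of Col6a4 (log scale, y axis) for the 5 replicate numbers of each genotype (x axis), with 1 point per region. In Shank3-HT mice replicate 5 and in Shank3-HM mice replicate 3 is lowest in all 3 regions.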

How the data were processed

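RNA from prefrontal cortex, hippocampus and striatum was sequenced by the study from TruSeq Stranded mRNA libraries. The deposited signal values are gene counts that the authors estimated with Salmon 1.1.0 against GRCm38 and normalized with DESeq2 1.26.0 in R 3.6.2, according to the submitters' processing notes. The study's methods name other versions of the last pair of tools. They have decimals and no raw counts were used here, so no count model was run, and the precision that depth gives is unknown. The 5 samples of a group were taken as replicates. The labels do not say which samples of different regions come from one animal, and p-values measure the spread between samples.

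Values were tested as log2(value + 1) with limma 3.58.1 in R 4.3.3 (empirical Bayes with an intensity trend), all 3 genotypes of a region in 1 fit, over genes with a mean of at least 10 in that region. Regions of WT mice and differences of genotype effects between regions were tested in 1 fit of the 9 groups. Adjusted p (Benjamini-Hochberg, over all genes tested) had a threshold of 0.05. Relations with Ttr and with the meninges and fibroblast list used values centred on genotype means and 100000 permutations. They were planned as adjusted over the members and were adjusted over all genes of a region instead. Levels per kb used the transcript with the longest coding sequence. Scripts were tested on simulated data.

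Of the genes that the name rule finds, 1 is not reported here and stands in no count of members. The members and all lists were chosen with earlier results of these data known. The genes named are members past the threshold for genotype, the 3 of smallest p in each comparison of mutant with WT mice, the 5 of highest mean normalized count in each WT region, the 3 largest differences in each direction between WT regions, the main chains of collagen I, III and IV and the common laminins, and those nearest the minimum. Other members were named after their values were seen: Col9a3, Col4a3, Col4a5, Col4a6, Col5a2, Col6a2, Col6a3, Col16a1, Col18a1, Col19a1, Lama4, Lamb2, Lamc3 and those in lists of calls kept, lost or gained. The relation of Col6a4 across regions was also chosen after seeing the data.

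Alternatives covered the pseudocount, the minimum mean, scaling, the trend, the samples in the fit, a replicate block, covariates and leaving out each sample.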

Additional observations from a re-analysis of the deposited data

Results flagged for a closer look

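In 34 of 324 groups of 5 samples (34 named members, Ttr and Shank3 in 9 groups each) 1 sample stood apart from the other 4 by more than 0.71 of the group's range. Chance gives about 1 in 20 (16.2) for symmetric values, whereas these are untransformed counts, and in 33 of the 34 the sample stood above the others, so the number says nothing of the members as a set. Striatal Shank3-HT replicate 5 held 5 of them, with Ttr of 62259, Col8a1 of 452, Col8a2 of 368, Col4a4 of 129.8 and Col23a1 of 213. Striatal WT replicate 5 also held 5, with Col24a1 of 531, Col6a1 of 6003, Col25a1 of 1633, Col12a1 of 388 and Lama1 of 202. Hippocampal Shank3-HT replicate 4 held 3, with Col20a1 of 198, Col24a1 of 122 and Col22a1 of 162.

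In the other striatal samples Col8a2 was 120.1 in Shank3-HM replicate 2, Col8a1 was 36.7 and Col23a1 was 221 in Shank3-HM replicate 3, Col22a1 was 58.3 in Shank3-HM replicate 1, Col28a1 was 28.7 in Shank3-HT replicate 4 and Lama1 was 196 in Shank3-HT replicate 3. Striatal Ttr was 839.6 in WT replicate 4, and Shank3 was lowest, at 4569, in Shank3-HM replicate 5.

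In the hippocampus Ttr was 113040 in WT replicate 4. Col6a6 was 28.5 and Lama3 was 181 in WT replicate 2, Col28a1 was 20.4 and Col6a5 was 80.5 in Shank3-HT replicate 3, Col17a1 was 48.8 in Shank3-HT replicate 2, Lamb1 was 1531 in Shank3-HT replicate 5 and Col20a1 was 174 in Shank3-HM replicate 2. In the cortex Lamb1 was 493 in Shank3-HM replicate 2, Col3a1 was 198 in WT replicate 5, Lama1 was 228 in WT replicate 3 and 344 in Shank3-HT replicate 5, and Ttr was 932 in Shank3-HT replicate 3.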

How the results depend on the processing

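With log2 Ttr as a covariate 3 calls between WT regions changed sign: Col4a3 (0.23) and Col18a1 (0.042) for cortex minus hippocampus and Col9a3 (-0.032) for hippocampus minus striatum. Medians of the members crossed 0 in 5 comparisons of genotypes, with ranges over the alternatives of -0.13 to 0.00 for cortical Shank3-HM, -0.03 to 0.19 for hippocampal Shank3-HM, -0.05 to 0.10 for striatal Shank3-HT and -0.07 to 0.02 for striatal Shank3-HM against WT mice, and of -0.13 to 0.06 for hippocampal Shank3-HM against Shank3-HT mice. The count of members called between genotypes was 0 under every alternative run, leaving out samples 1 at a time included. With log2 Ttr as a covariate 6 members were lower in cortex than in hippocampus and 17 higher in hippocampus than in striatum. Without single samples the counts between WT regions lay between 22 and 27 for cortex and hippocampus, 23 and 27 for cortex and striatum and 33 and 37 for hippocampus and striatum. Without single samples Col4a3, Col6a5, Col11a2, Col18a1 and Lamc1 lost calls between cortex and hippocampus, Col1a1, Col6a4, Col9a1, Col20a1 and Col24a1 between cortex and striatum, and Col4a3, Col4a6, Col6a4, Col15a1, Col17a1 and Col27a1 between hippocampus and striatum. The fit with a replicate block gave 28, 27 and 36 calls between regions and 0 in the comparisons of genotypes. The labels do not say that a number marks an animal, and the criterion for pairing, r over 0.1 between the deviations of samples with the same number in every pair, was not met. It was passed by 5 of 45 pairs between genotypes of a region and by 15 of 45 pairs between regions of a genotype, beside 21 of 630 pairs of samples from different regions that differ in number or genotype. The best match of a sample among the 5 of its genotype in another region had its own number in 52 of 90 cases. This is a hint from the data and not from the design. Depth is unknown, so no limit for low genes could be set.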
